A study of Mus musculus with 48 samples.

Results

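The layer 6 projection neuron genes described here are Tle4, Foxp2, Syt6, Ntsr1, Hs3st4, Rprm, Tbr1, Nxph4, Cplx3 and Sla. They were picked out by gene symbol, and all 10 were found among 48795 genes in the deposited count table and among the 19547 genes that passed the filter on low counts. RNA was sequenced from the cerebral cortex of 48 mice aged 12 months on a C57BL/6 background. Each of 6 genotypes had 8 libraries, 4 from males and 4 from females, namely Q140 X Msh3-/-, Q140 X Msh3+/-, Q140, Msh3-/-, Msh3+/- and wild type (WT). In Q140 mice, here heterozygous, a long CAG repeat has been knocked into the Htt gene to model the Huntington disease mutation, and Msh3 encodes a mismatch repair protein that drives the further lengthening of such repeats in somatic tissue. The 24 mice with the Q140 allele are called carriers, and the 24 without it, of all 3 Msh3 genotypes, non-carriers. The comparisons ask whether the genes of deep cortical projection neurons differ with the Q140 allele, with Msh3 genotype and with sex.

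Layer 6 is the deepest layer of the neocortex. Its best known output cells are corticothalamic neurons, which send axons to the thalamus and there modulate the relay of sensory signals, while layer 6b, beneath them, holds what remains of the embryonic subplate. Corticothalamic identity is set during development by transcription factors, and Tbr1, a T-box factor, is needed for it. Foxp2, a forkhead transcription factor, and Tle4, a corepressor of the Groucho family, mark the same cells. Ntsr1, the high-affinity neurotensin receptor, is the gene most used to direct Cre to corticothalamic neurons. Syt6 encodes a synaptotagmin, Hs3st4 an enzyme that adds sulfate to heparan sulfate chains, Rprm the cell cycle inhibitor reprimo, and Sla a Src-like adaptor known from lymphocyte receptor signalling. Nxph4, a secreted neurexophilin, and Cplx3, a complexin that binds the vesicle fusion machinery, are markers of layer 6b and subplate neurons.

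Library totals ran from 37.7 to 68.3 M counts, with a median of 48.6 M. The count of Msh3 itself was higher in the mutants, at 95.3 ± 8.03 CPM (counts per 1000000 counts of the normalised library) in Q140 X Msh3-/-, 57.9 ± 3.01 in Q140 X Msh3+/-, 21.8 ± 0.979 in Q140, 99.2 ± 8.15 in Msh3-/-, 60.1 ± 3.06 in Msh3+/- and 22.4 ± 1.16 CPM in WT (SD, n = 8 each). Which part of Msh3 is deleted is not stated, so this count follows the labels but does not measure functional transcript. Choroid plexus or pituitary genes stood out in 12 libraries, 3 from carriers and 9 from non-carriers. Most were male, and among them were 4 of the 8 Msh3+/- libraries (F4, M1, M2 and M3) and WT F4, M2, M3 and M4. Msh3+/- M4 and WT M1 are the only males left in those groups. Fits without the 12 are thus unbalanced by sex and genotype. For single genes of the set whose printed values move most or turn direction without these 12, the value without them is given as well. The tissue is a whole piece of cortex, so fewer layer 6 cells and less RNA per cell cannot be told apart in any value below.

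Levels per transcript length set the order of the genes. The deposited FPKM values (counts divided by gene length and library total) averaged 34.4 ± 1.77 for Tbr1, 14.9 ± 2.97 for Rprm, 9.68 ± 1.05 for Hs3st4 and 9.51 ± 0.675 for Tle4 (SD, n = 48 libraries). Hs3st4 was above Tle4 in 26 of 48 libraries, so the order of that pair is not fixed. Cplx3 followed at 3.34 ± 0.387 FPKM, Syt6 at 2.10 ± 0.358 and Ntsr1 at 1.52 ± 0.332 FPKM. Foxp2, at 0.470 ± 0.103 FPKM, exceeded Sla, at 0.436 ± 0.0729 FPKM, in 33 of 48 libraries, and Nxph4 was lowest at 0.198 ± 0.104 FPKM. All 10 genes were detected in all 48 libraries, Nxph4 with as few as 4 and at most 46 counts. The spread between libraries differed widely: the coefficient of variation of CPM was 5.54% for Tbr1 and 7.13% for Tle4, against 21.6% for Ntsr1, 21.9% for Foxp2 and 52.4% for Nxph4.

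**Figure D1:**
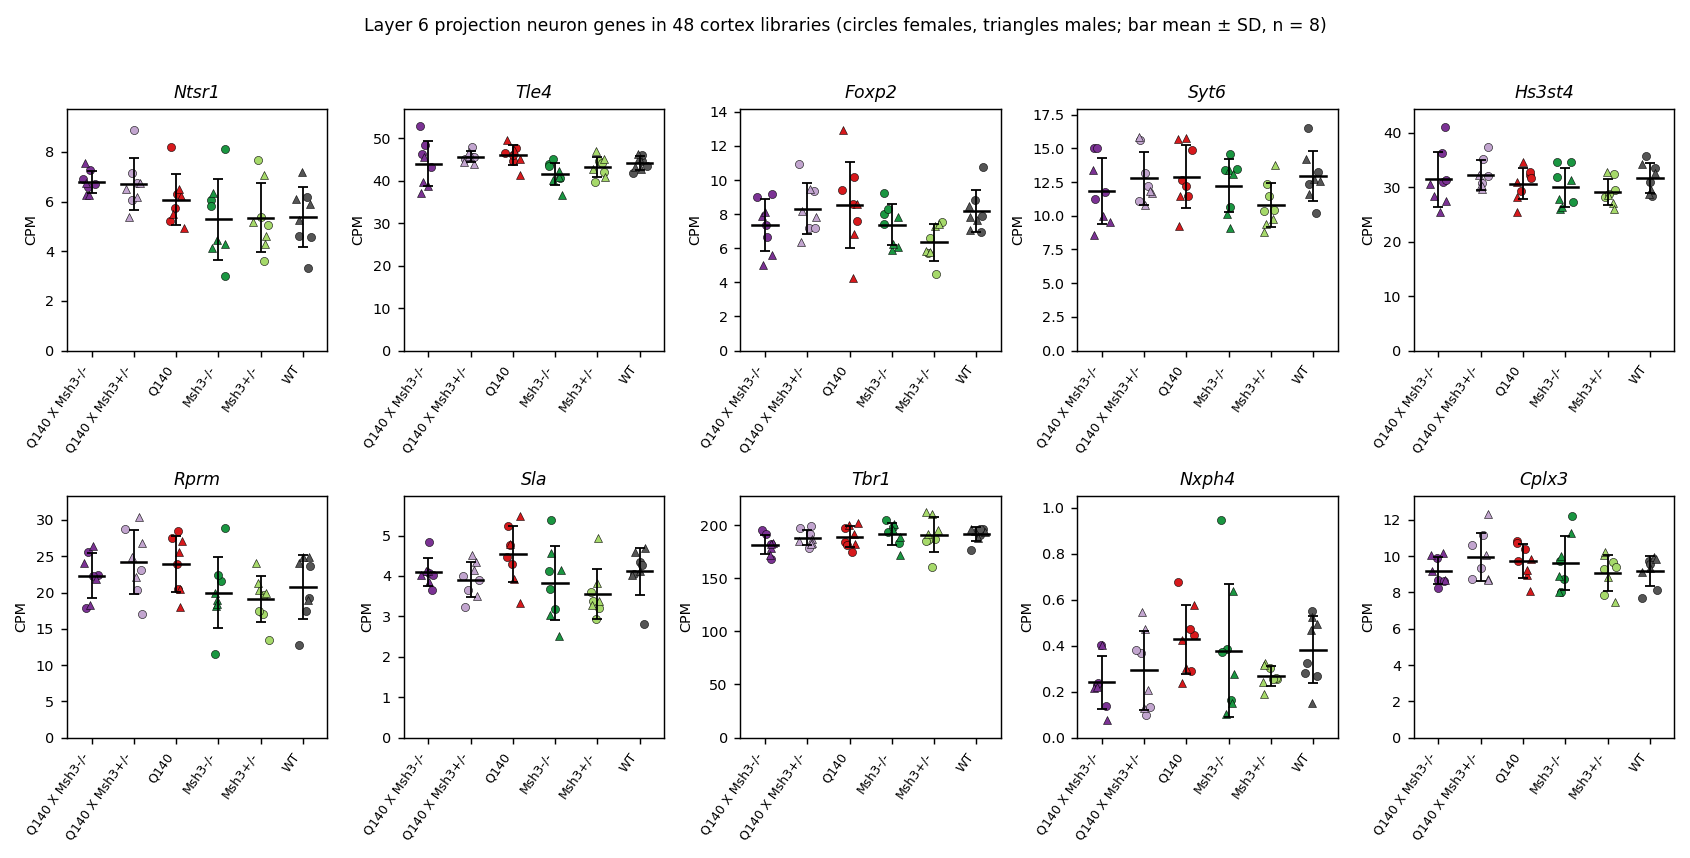
Normalised counts of each gene in counts per 1000000 (CPM, vertical axes from 0) by genotype (horizontal axes), with 1 symbol per library, circles for females, triangles for males, and the mean ± SD of 8 libraries as bars. Tbr1 and Tle4 are tight, Nxph4 is widely scattered, and the genotype ranges overlap in every panel.

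The promoters of Ntsr1, Rprm and Hs3st4 are shown because the results below turn on these genes. Ntsr1 and Rprm had the largest differences of the set between carriers and non-carriers averaged over Msh3 genotype, and Hs3st4 was the gene that differed by sex. Each line holds the 250 bases upstream of the transcript start listed by RefSeq on GRCm38.p6, 5′ to 3′ on the strand of the gene, with CpG dinucleotides in capitals. The windows are chr2:180499726-180499975 on the plus strand for Ntsr1, chr2:54085553-54085802 on the minus strand for Rprm and chr7:123982578-123982827 on the plus strand for Hs3st4.
Ntsr1: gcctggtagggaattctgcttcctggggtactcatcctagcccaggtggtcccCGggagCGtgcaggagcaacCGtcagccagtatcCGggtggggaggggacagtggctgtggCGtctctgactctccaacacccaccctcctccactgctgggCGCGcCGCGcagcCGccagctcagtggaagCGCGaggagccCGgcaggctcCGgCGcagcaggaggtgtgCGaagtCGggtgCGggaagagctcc
Rprm: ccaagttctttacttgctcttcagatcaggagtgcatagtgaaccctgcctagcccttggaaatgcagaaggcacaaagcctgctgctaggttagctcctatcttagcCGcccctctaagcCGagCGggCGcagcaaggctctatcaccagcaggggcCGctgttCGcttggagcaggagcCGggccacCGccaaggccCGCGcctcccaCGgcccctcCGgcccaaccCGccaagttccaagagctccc
Hs3st4: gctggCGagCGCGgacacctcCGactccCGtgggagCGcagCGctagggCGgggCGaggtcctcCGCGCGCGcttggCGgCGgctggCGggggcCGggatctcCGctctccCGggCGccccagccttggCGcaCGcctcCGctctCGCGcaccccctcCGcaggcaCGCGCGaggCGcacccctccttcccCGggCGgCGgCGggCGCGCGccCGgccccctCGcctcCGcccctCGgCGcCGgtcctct
The Hs3st4 window held 43 CpG dinucleotides and was 82% G or C, the Ntsr1 window 18 and 68.4%, and the Rprm window 13 and 62.4%. Across all 32851 promoters in the table the medians were 6 CpG dinucleotides and 52.4% G or C. Promoters were listed for 7 of the 10 genes, Foxp2, Nxph4 and Sla being the others, and these had 10 windows in all. A T-box sequence (TCACACCT, or AGGTGTGA on the other strand) and a forkhead sequence (TGTTTAC or GTAAACA) were searched in windows of 300 bases that include the start. None of the 10 windows held either, against 1.28% of all promoters for the T-box sequence and 3.65% for the forkhead sequence, which says only that these letters are not in these windows.

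Ntsr1 (ENSMUSG00000027568, GRCm38 chromosome 2, 180499976 to 180544980, plus strand) was higher in the carriers than in the non-carriers, but the difference did not pass the test across all genes. Its lowest, median and highest values were 6.24, 6.72 and 7.54 CPM in Q140 X Msh3-/-, 5.37, 6.63 and 8.89 CPM in Q140 X Msh3+/-, and 4.95, 5.98 and 8.21 CPM in Q140. In the non-carriers they were 2.99, 5.13 and 8.11 CPM in Msh3-/-, 3.59, 5.11 and 7.68 CPM in Msh3+/-, and 3.34, 5.57 and 7.20 CPM in WT. The low values seen in each non-carrier group were absent from the carriers, but the ranges overlapped. The 24 carriers averaged 6.52 ± 0.899 CPM and the 24 non-carriers 5.34 ± 1.35 CPM (SD). The log2 fold change, averaged over the 3 Msh3 genotypes, was 0.283 ± 0.0838 (SE; 95% interval 0.114 to 0.452), with an edgeR adjusted p of 0.0735. Within the Msh3 genotypes it was 0.355 ± 0.144 for Q140 X Msh3-/- against Msh3-/- (adjusted p = 0.703), 0.306 ± 0.145 for Q140 X Msh3+/- against Msh3+/- (0.615) and 0.188 ± 0.147 for Q140 against WT (0.751). These 3 comparisons share no library. All 3 were above 0 with both sexes fitted together, but Q140 against WT gave 0.482 in females alone and -0.083 in males alone, where Q140 had 5.79 ± 0.707 CPM and WT 6.11 ± 0.814 CPM (SD, n = 4 each). The lowest WT value, 3.34 CPM, was in a female, WT F4. Over fits without 1 library, Q140 against WT ran from 0.085 to 0.271, and its edgeR adjusted p was highest (0.918) without WT F4. The sample name prefixes of WT F3 (MQC72) and WT F4 (PQ71) have a form seen in no other library. Without the 12 libraries the value for Q140 X Msh3+/- against Msh3+/- was 0.615.

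The adjusted p of Ntsr1 depended on the processing. It passed 0.05 with plate row as a term (log2 fold change 0.359, adjusted p = 0.0320), without the 12 libraries with choroid plexus or pituitary transcripts (0.393, adjusted p = 0.0262), with the sample name prefix as a random block in limma (0.315, adjusted p = 0.0320) and in DESeq2 (0.284, adjusted p = 0.0438). In the other 8 alternatives it did not pass. Leaving out a single library brought it past 0.05 in 4 of 48 fits, with adjusted p = 0.0261 without Msh3-/- F1, 0.0342 without Msh3+/- F4, 0.0398 without Msh3+/- M1 and 0.0431 without WT M2, and the highest adjusted p over these fits was 0.117. Carriers had the higher mean in 6 of 6 columns of the library plate, by 0.046 to 0.548 on the log2 scale in 5 of them. In the other column, with 0.621, all 3 carriers were male and all 5 non-carriers female, so genotype and sex cannot be told apart there, and a column with 0.127 held a single non-carrier.

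Rprm (chromosome 2, 54084093 to 54085552, minus strand) followed the same pattern. Carriers ranged from 17.0 to 30.5 CPM with a median of 23.5, and non-carriers from 11.6 to 28.8 CPM with a median of 19.8. By genotype the carrier means ran from 22.3 ± 3.07 CPM in Q140 X Msh3-/- to 24.2 ± 4.46 CPM in Q140 X Msh3+/-, and the non-carrier means from 19.1 ± 3.16 CPM in Msh3+/- to 20.8 ± 4.37 CPM in WT (SD, n = 8 each). All 3 carrier means were above all 3 non-carrier means, although the single libraries overlapped. The log2 fold change was 0.239 ± 0.0785 with an edgeR adjusted p of 0.110, and only without Msh3-/- F1, the library with the highest non-carrier value, did it pass (adjusted p = 0.0456). Carriers were higher in 5 of 6 plate columns, with differences from -0.012 to 0.639. The largest was in the column where genotype and sex cannot be told apart. For Q140 against WT, Rprm had 0.476 in females alone and -0.033 in males alone. Here too WT F4, a female, had the lowest WT value, 12.8 CPM. Over fits without 1 library this comparison ran from 0.137 to 0.280.

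Tle4 (chromosome 19, 14448150 to 14598051, minus strand) showed a smaller difference with less spread. Its levels were 37.1 to 52.9 CPM in carriers (median 45.6) and 36.6 to 46.9 CPM in non-carriers (median 43.3), which overlap, with 6 of 24 carriers above the highest non-carrier. The log2 fold change was 0.072 ± 0.0264, with an edgeR adjusted p of 0.155, and it was 0.105 in females alone and 0.032 in males alone. Carriers were higher in 6 of 6 plate columns, by 0.020 to 0.145, but by only 0.020, 0.021 and 0.020 in columns 4, 5 and 6. Column 4 is the one where genotype and sex cannot be told apart, and the column with a single non-carrier had 0.063. The spread was widest in Q140 X Msh3-/-, which held both the highest and the lowest carrier (SD 5.34 CPM, against 1.58 CPM in WT).

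The transcription factor genes Foxp2 and Tbr1 did not pass the test either. Foxp2 averaged 8.07 ± 1.90 CPM in carriers and 7.30 ± 1.36 CPM in non-carriers (log2 fold change 0.153, adjusted p = 0.369). Most of that came from the Msh3+/- pair, with 8.32 ± 1.51 CPM in Q140 X Msh3+/- and 6.34 ± 1.08 CPM in Msh3+/-, a log2 fold change of 0.385 ± 0.143 (adjusted p = 0.479), and 0.623 without the 12 libraries. For Q140 X Msh3-/- against Msh3-/- the Foxp2 difference was 0.005 ± 0.141. Tbr1, the most abundant gene of the set, had 186 ± 9.05 CPM in carriers and 191 ± 11.3 CPM in non-carriers, a log2 fold change of -0.040 (95% interval -0.085 to 0.006, adjusted p = 0.405). The Tbr1 interval excludes a change of the size estimated for Ntsr1 or Rprm. Syt6 (0.069), Hs3st4 (0.055), Sla (0.129) and the layer 6b genes Cplx3 (0.048, and 0.024 without the 12 libraries) and Nxph4 (-0.123) had adjusted p-values from 0.346 to 0.826.

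Counted over the set, 0 of 10 genes were called at an edgeR adjusted p under 0.05 in carriers against non-carriers, where 1.47% of all tested genes were called. DESeq2 called 1, Ntsr1, and so did limma with the name prefix as a random block. At an unadjusted p under 0.05, 3 of 10 passed, all higher, against 15.1% of all genes in either direction and 8.28% higher. Of the 10 log2 fold changes 8 were above 0, with a median of 0.071, beside 49.5% above 0 and a median of -0.001 over all genes. In Q140 against WT no gene of the set was called (background 0.102%) and 0 had an unadjusted p under 0.05 (background 8.80%), with a median log2 fold change of 0.079 and 8 above 0. In Q140 X Msh3-/- against Msh3-/- none was called either (background 0.0205%). There the median was 0.036, with 6 above 0, and Ntsr1 (higher) and Tbr1 (lower) had an unadjusted p under 0.05, as had 6.77% of all genes. Q140 X Msh3+/- against Msh3+/- had 0 calls (background 0.0512%), a median of 0.135 and 9 of 10 above 0. Here Foxp2, Rprm, Ntsr1, Syt6 and Hs3st4 were higher at an unadjusted p under 0.05, against 3.79% of all genes higher at that level and 7.77% in either direction. Foxp2, Syt6 and Hs3st4 varied together between libraries (r from 0.62 to 0.73, given below), as did Ntsr1 and Rprm (0.64), so these are not separate results. DESeq2 and limma also called 0 of 10 in each of these pairwise comparisons and in both interactions. The difference between these effects was tested as an interaction of Q140 with Msh3 genotype: 0 of 10 were called for Msh3-/- and 0 of 10 for Msh3+/-, as for all genes (background 0% in both), and an unadjusted p under 0.05 was found for 0 genes with Msh3-/- (3.20% of all genes) and for Hs3st4 alone with Msh3+/- (0.191 ± 0.0924, adjusted p = 0.999, 3.30% of all genes; 0.292 without the 12 libraries).

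**Figure D2:**
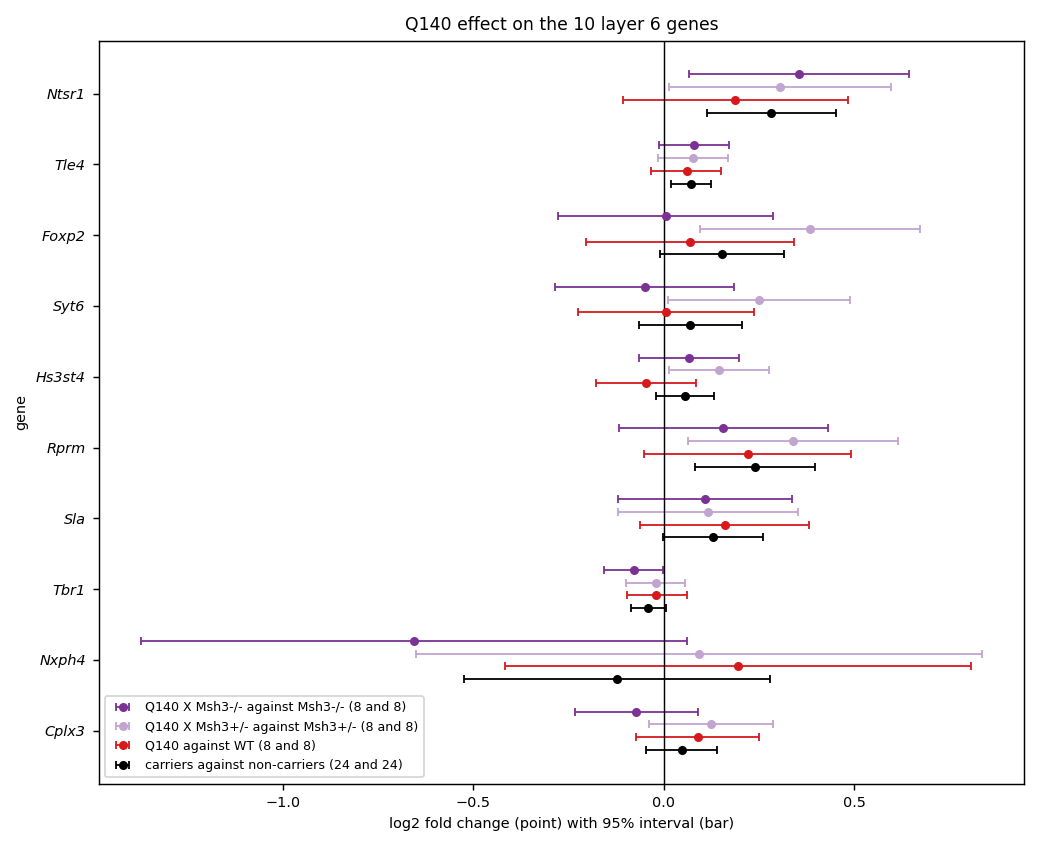
Log2 fold changes (horizontal axis; points) with 95% intervals (bars) of the 10 genes for Q140 X Msh3-/- against Msh3-/-, Q140 X Msh3+/- against Msh3+/-, Q140 against WT and all carriers against non-carriers. The points for Ntsr1, Rprm, Tle4, Sla and Foxp2 are to the right of 0 in all 4 comparisons. That of Foxp2 is at 0.005 for Q140 X Msh3-/- against Msh3-/-. The Nxph4 intervals are the widest.

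Genes of neighbouring cell types give the setting of these differences. Of 12 other corticothalamic genes edgeR called 0 in carriers against non-carriers (3 at an unadjusted p under 0.05), with a median log2 fold change of 0.020. The 2 of smallest p were Rgs4, a regulator of G-protein signalling (-0.078, adjusted p = 0.174), and Nfia, a nuclear factor I gene (-0.073, adjusted p = 0.211), both on the lower side. Among 11 tested genes of layer 6b and subplate 0 were called (1 at an unadjusted p under 0.05), with a median of 0.045, led by Cobll1 (-0.109) and Kcnab1 (0.045), a potassium channel subunit. Of 10 genes of layer 6 intratelencephalic and claustrum neurons 1 fell, the enkephalin precursor Penk (-0.215 ± 0.0432, adjusted p = 0.00369), and Cdh9, a cadherin, had 0.099. None of 14 layer 5 genes was called (3 at an unadjusted p under 0.05; median 0.056). Of 15 upper layer genes 2 fell, Stard8 (-0.165) and Lamp5 (-0.174), with a median of -0.025.

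Some genes of other cell types also differed with the Q140 allele. Of 10 astrocyte genes 6 fell, among them the glutamate transporter Slc1a2 (-0.182) and glutamine synthetase Glul (-0.165), and the summed level of the list was 6754 to 7997 CPM in carriers and 7216 to 9007 CPM in non-carriers. Of 12 oligodendrocyte genes 1 fell (Mal), with sums of 1473 to 2432 CPM in carriers and 1509 to 2608 CPM in non-carriers. Camk2a (-0.125) of 10 pan glutamatergic genes and Cabp7 (-0.179) of 9 tested hippocampal genes were called lower. Neither list moved in 1 direction: 5 of the 10 pan glutamatergic genes were above 0 (median 0.004), and 6 of the 9 hippocampal genes (median 0.025). Of 11 tested striatal genes 1 was called higher, with a median of 0.029. The striatal list summed to 399 to 519 CPM in carriers and 415 to 527 CPM in non-carriers. Choroid plexus genes summed to 210 to 245 CPM in carriers and 206 to 1132 CPM in non-carriers, and pituitary genes to 0.399 to 3.78 CPM in carriers and 0.273 to 45.4 CPM in non-carriers. The part of these cell types in the differences of Ntsr1, Rprm and Tle4 was not tested. Without the 12 libraries named above, Ntsr1, Rprm and Tle4 had log2 fold changes of 0.393, 0.299 and 0.089. Those libraries were picked on choroid plexus and pituitary genes alone, so that fit does not address the other cell types. Summed over the 10 genes of the set, carriers had 296 to 362 CPM and non-carriers 279 to 351 CPM.

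Msh3 genotype was not associated with a called change in any of the 10 genes. The largest log2 differences were in Nxph4, the neurexophilin of layer 6b. Its lowest, median and highest values were 0.0783, 0.225 and 0.404 CPM in Q140 X Msh3-/-, 0.0986, 0.288 and 0.545 CPM in Q140 X Msh3+/-, and 0.239, 0.434 and 0.677 CPM in Q140. In Msh3-/- they were 0.101, 0.323 and 0.947 CPM, in Msh3+/- 0.189, 0.258 and 0.323 CPM, and in WT 0.150, 0.396 and 0.552 CPM. All groups overlapped, and these levels correspond to about 16.2 counts a library. Averaged over Q140 status, the Nxph4 log2 fold change was -0.481 ± 0.235 for Msh3-/- against Msh3+/+ (16 and 16 libraries, adjusted p = 0.322) and -0.524 ± 0.238 for Msh3+/- against Msh3+/+ (adjusted p = 0.597). The Msh3-/- average joins unlike values, -0.906 ± 0.343 for Q140 X Msh3-/- against Q140 (adjusted p = 0.685) and -0.055 ± 0.318 for Msh3-/- against WT (adjusted p = 0.963). The value against WT was -0.416 without Msh3-/- F1, the library at 0.947 CPM, 0.078 without the 12 libraries, -0.632 in males alone and 0.463 in females alone.

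Tle4 averaged 42.8 ± 4.27 CPM in the 16 Msh3-/- libraries and 45.1 ± 2.21 CPM in the 16 Msh3+/+ libraries, a log2 fold change of -0.078 ± 0.0323 (adjusted p = 0.245). It was -0.170 in males alone and 0.013 in females alone, and whether the sexes differ was not tested. Sla averaged 3.74 ± 0.546 CPM in the Msh3+/- libraries and 4.33 ± 0.657 CPM in the Msh3+/+ libraries, with -0.194 ± 0.0807 (adjusted p = 0.588). Foxp2 had -0.179 ± 0.0976 and -0.195 ± 0.0986 for Msh3-/- and Msh3+/- (adjusted p = 0.384 and 0.614). Without the 12 libraries Foxp2 was at -0.329 and Sla at -0.300 for Msh3+/-. Ntsr1 was at 0.072 and 0.080 in these comparisons, but at -0.034 for Msh3+/- without the 12 libraries and at -0.070 and -0.041 in males alone, and Hs3st4 at -0.020 and -0.023, with intervals that reach from -0.135 to 0.288 for Ntsr1 and from -0.116 to 0.072 for Hs3st4.

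Over the set, edgeR called 0 of 10 genes for Msh3-/- against Msh3+/+ (background 0.215%) and 0 of 10 for Msh3+/- against Msh3+/+ (background 0.0512%). In each of these 2 of 10 had an unadjusted p under 0.05, all lower, against 14.9% and 8.14% of all genes in either direction. The log2 fold changes were above 0 for 1 and 2 genes, with medians of -0.075 and -0.034. The pairwise comparisons gave 0 of 10 called in Msh3-/- against WT (background 0.113%, median -0.065), Msh3+/- against WT (background 0.0307%, median -0.111), Q140 X Msh3-/- against Q140 (background 0.102%, median -0.093) and Q140 X Msh3+/- against Q140 (background 0.0307%, median -0.011). At an unadjusted p under 0.05 the numbers were 0, 2, 1 and 0, beside 10.8%, 4.96%, 6.86% and 6.22% of all genes, with Foxp2 (-0.353, and -0.639 without the 12 libraries) and Syt6 (-0.257, and -0.386 without them) in Msh3+/- against WT and Nxph4 in Q140 X Msh3-/- against Q140. DESeq2 and limma also called 0 of 10 in each of the 6. The comparisons against WT share the WT libraries and those against Q140 share the Q140 libraries, so their signs are not independent of each other. The other deep layer lists had medians for Msh3-/- against Msh3+/+ of -0.080 for 12 corticothalamic genes, -0.143 for 11 layer 6b genes, -0.016 for 10 layer 6 intratelencephalic and claustrum genes and -0.121 for 14 layer 5 genes, all with 0 calls. For the 15 upper layer genes the median was on the other side, at 0.058, and 14 of them were above 0, again without a call.

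**Figure D3:**
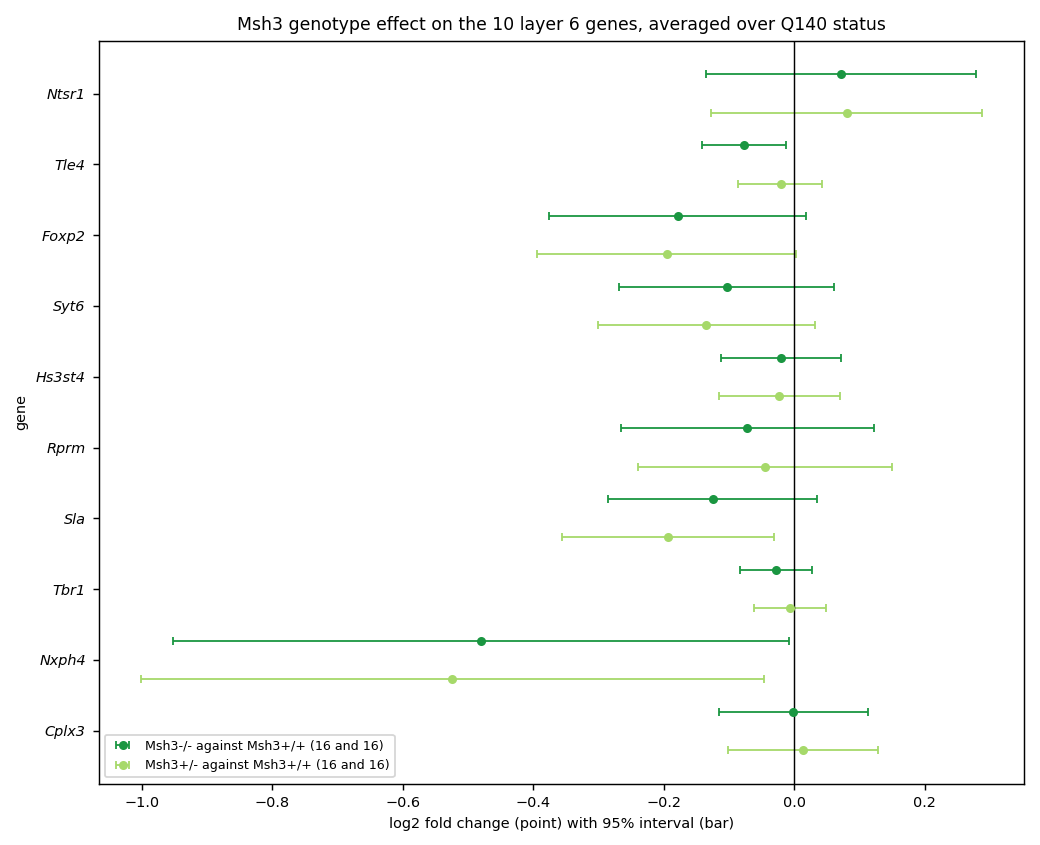
Log2 fold changes (horizontal axis; points) with 95% intervals (bars) of the 10 genes for Msh3-/- and Msh3+/- against Msh3+/+, each averaged over Q140 status with 16 libraries a side. Most points lie close to or left of 0, and Nxph4 has the lowest points and the widest intervals.

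Hs3st4 (ENSMUSG00000078591, chromosome 7, 123982869 to 124398989, plus strand) was the gene of the set that differed by sex. Its lowest, median and highest values were 25.4, 29.1 and 34.6 CPM in 24 males and 27.4, 32.0 and 41.1 CPM in 24 females. The ranges overlapped, with the female distribution shifted upward. Males averaged 29.4 CPM and females 32.4 CPM, a log2 fold change of -0.146 ± 0.0377 (SE; 95% interval -0.221 to -0.070, edgeR adjusted p = 0.0154). The male mean was lower in 6 of 6 genotypes. It was 28.0 ± 2.11 CPM in males and 34.9 ± 4.78 CPM in females of Q140 X Msh3-/- (n = 4 each), the single genotype where the ranges did not overlap, against 31.3 ± 2.59 CPM in males and 32.2 ± 3.17 CPM in females of WT. Whether the sex difference itself differs between genotypes was not tested. The call was kept in 8 of 8 alternatives, with adjusted p from 0.00668 to 0.0461, and in 48 of 48 fits without a single library, with adjusted p from 0.00660 to 0.0273. Males were lower in 5 of 6 plate columns, the other being the one whose males are all carriers and whose females all non-carriers.

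**Figure D4:**
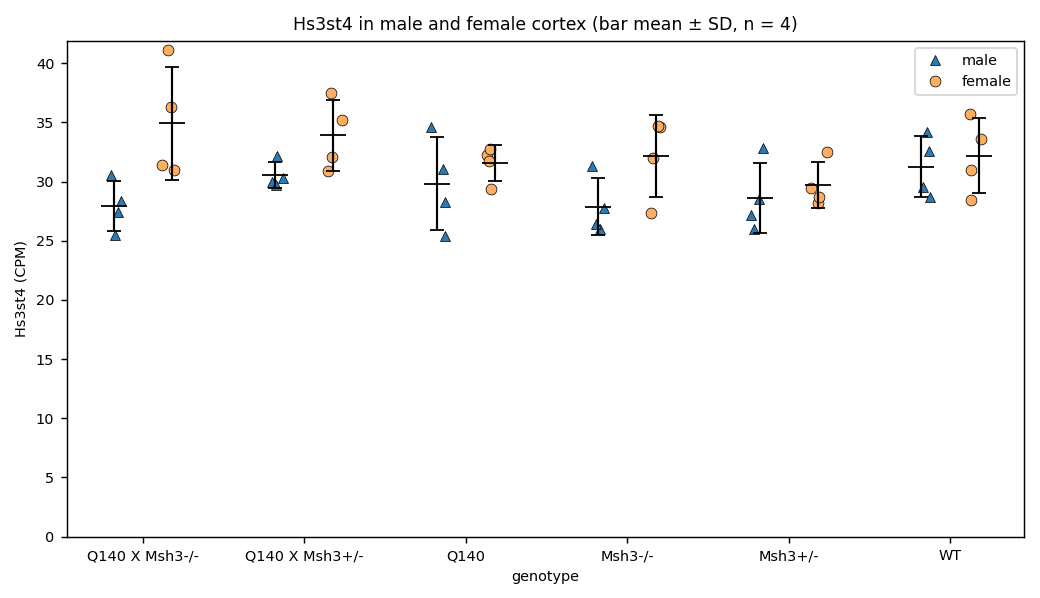
Hs3st4 in CPM (vertical axis from 0) for males (triangles) and females (circles) of each genotype (horizontal axis), with 1 symbol per library and the mean ± SD of 4 libraries as bars. The male mean is the lower in all 6 genotypes, by the most in Q140 X Msh3-/-.

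Among the 10 genes, 1 was called in males against females, where 4.28% of all tested genes were called and 2.65% were lower. At an unadjusted p under 0.05 there were 2 of 10, Hs3st4 and Tle4 (-0.057 ± 0.0264, adjusted p = 0.236), against 17.4% of all genes. Foxp2 had -0.162 ± 0.0806 (adjusted p = 0.290) and Syt6 -0.124 ± 0.0672 (adjusted p = 0.351), and Rprm 0.102 ± 0.0785 (adjusted p = 0.546). Without the 12 libraries, most of them male, the values were -0.100 for Tle4, -0.275 for Foxp2, -0.242 for Syt6 (adjusted p = 0.0767) and -0.007 for Rprm, whose direction thus turned. None of these passed the test in that setting, and the remaining members had -0.001 for Tbr1, -0.035 for Cplx3, -0.080 for Sla, -0.094 for Ntsr1 and -0.311 for Nxph4, against 0.022, 0.006, 0.032, -0.054 and -0.117 in all libraries. Of the 12 other corticothalamic genes, Pcp4 (-0.181) and Grik3 (-0.089) were called lower in males. Both are named because of these values. The list did not move in 1 direction. Males were higher for 4 of the 12 genes, by up to 0.220, 1 of them at an unadjusted p under 0.05. Across the list the median log2 fold change was -0.018. Hs3st4 overlaps an antisense gene model, Gm27040, over 130 exon bases, and whether the counting used strand is not given in the sources used here, so reads of that model cannot be told apart from those of Hs3st4. Syt6 has such an overlap of 505 exon bases with Atg4a-ps.

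Several other lists moved with sex beside Hs3st4. Of 12 oligodendrocyte genes 4 were lower in males, with sums of 1473 to 2193 CPM in males and 1698 to 2608 CPM in females. Of 11 thalamic genes 3 were lower in males, with sums of 527 to 593 CPM in males and 527 to 624 CPM in females. Of 10 microglia genes 3 were lower in males (sums of 316 to 383 CPM in males and 308 to 410 CPM in females), and 4 of 4 tested blood genes were lower (0.140 to 7.41 CPM in males and 0.0699 to 22.8 CPM in females). Pituitary genes were higher in males for 2 of 3 tested, with sums of 0.273 to 45.4 CPM in males and 0.419 to 3.71 CPM in females. Their part in the Hs3st4 difference was not tested. Without those same 12 libraries the Hs3st4 difference was -0.179 (adjusted p = 0.0233). These 12 were mostly male and were picked on choroid plexus and pituitary genes alone, so that fit does not address the other lists.

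The genes also varied together between mice of the same genotype and sex. Correlations were taken over log2 CPM in 48 libraries after the means of genotype and sex had been removed. They describe libraries that also share depth, dissection and plate. Of the 45 pairs 39 were above 0 and 9 above 0.5, with a median r of 0.296 and a range from -0.10 to 0.73. The highest were Foxp2 with Syt6 (r = 0.73, rho = 0.73), Syt6 with Hs3st4 (r = 0.73, rho = 0.71), Ntsr1 with Rprm (r = 0.64, rho = 0.48) and Foxp2 with Hs3st4 (r = 0.62, rho = 0.60). Against the mean of the other 9 genes, Rprm (r = 0.73) and Sla (r = 0.70) were highest, and Tbr1 (0.24), Cplx3 (0.25) and Nxph4 (0.32) lowest. Each gene counted alike in such a mean, so genes with a wide spread weighed most. The SD of the log2 values was 0.614 for Nxph4, the gene with the lowest counts, against 0.0751 for Tbr1 and 0.0867 for Tle4. By the median r with the other members, Foxp2 (0.48), Syt6 (0.45) and Rprm (0.45) were highest, and Sla had 0.37. Nxph4 also had the widest spread in the mean of the whole set used below, and its part there was not tested. The pairs among Foxp2, Syt6, Hs3st4 and Tle4 ran from 0.48 to 0.73, whereas Cplx3 reached at most 0.29, with Sla.

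The mean of the 10 genes varied with the other layer 6 lists. Its r was 0.75 (rho = 0.71) with 12 other corticothalamic genes, 0.60 (rho = 0.61) with 11 layer 6b genes and 0.65 (rho = 0.64) with 10 layer 6 intratelencephalic and claustrum genes. It was 0.19 with layer 5 genes, 0.27 with pan glutamatergic genes and -0.38 (rho = -0.38) with 15 upper layer genes, of which 2 were above 0 singly. Striatal genes had 0.43, thalamic genes 0.00 and oligodendrocyte genes 0.08. Without WT F4 and Msh3-/- F1, the libraries farthest from the median of the set, these values were 0.71 for corticothalamic, 0.59 for layer 6b, 0.61 for intratelencephalic, -0.45 for upper layer, 0.39 for striatal and 0.07 for pan glutamatergic genes. WT F4 had the lowest mean of the set, -0.352 on the log2 scale, and was also the deepest library, Q140 M3 had -0.331, and Msh3-/- F1 had the highest, 0.433. The genes thus varied between libraries with other layer 6 genes, of the corticothalamic, layer 6b and intratelencephalic lists alike. These lists, like the set, were written with earlier results of these data known, so this is no independent check of the label.

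**Figure D5:**
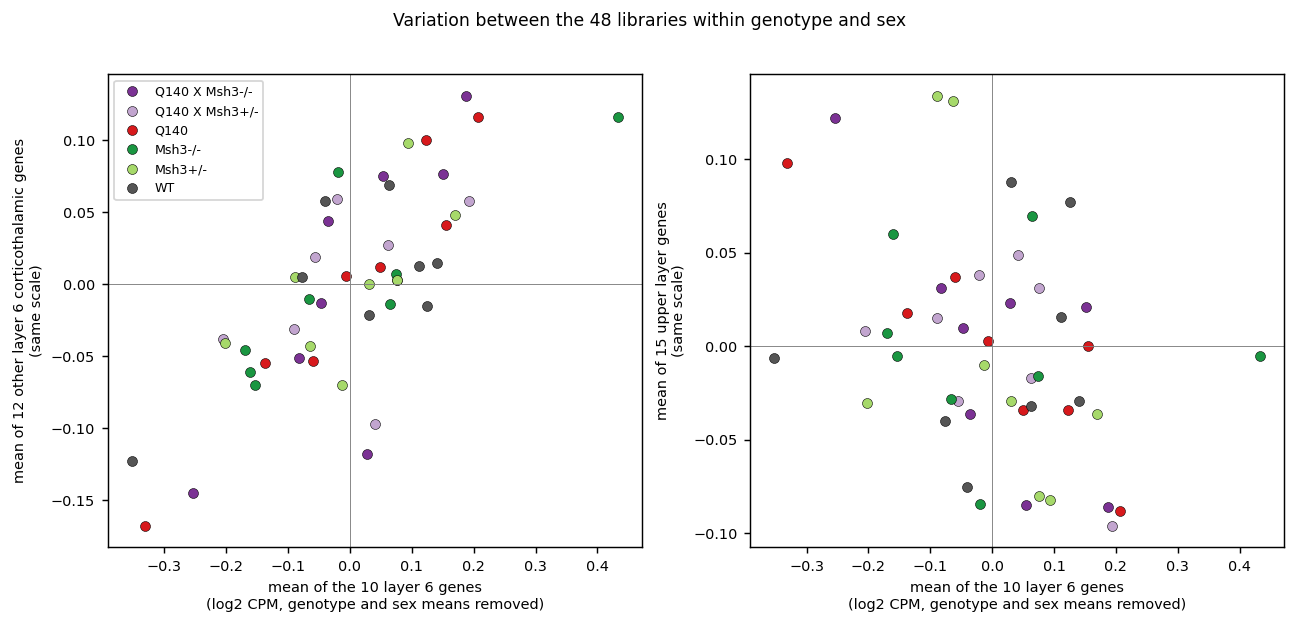
Mean of the 10 genes in each of 48 libraries (horizontal axes, log2 CPM with genotype and sex means removed) against the mean of 12 other corticothalamic genes (left) and of 15 upper layer genes (right), on the same scale, with 1 circle per library coloured by genotype. Points rise from lower left to upper right on the left (r = 0.75) and slope weakly downward on the right (r = -0.38).

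Outside the set, the 8 genes whose variation was most like its mean, among 14009 ranked, were Igsf21 (r = 0.79), Rai14 (0.75), Nxph3 (0.70), Oprk1 (0.69), Bcl11b (0.69), Rab26 (0.68), Spsb1 (0.68) and Rspo2 (0.67), over 48 libraries. Igsf21 encodes a synaptic adhesion protein of the immunoglobulin superfamily, Nxph3 a neurexophilin, Oprk1 the kappa opioid receptor, Bcl11b a zinc finger factor of subcortical projection neurons and Rspo2 a Wnt agonist. None of the 8 was called in carriers against non-carriers, with log2 fold changes from -0.064 for Oprk1 to 0.187 for Igsf21 (adjusted p = 0.130).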

How the data were processed

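RNA from cortex of 48 mice was sequenced with an Illumina TruSeq stranded kit, per the labels' protocols. The extraction text there speaks of striatum and another age; all the other labels state 12 months and cortex, and these were followed. Per the submitters' processing notes, the builds were GRCm38 or mm10 and the tools HTSeq 0.12.3, SAMtools 1.10 and STAR 2.7.5c. The deposited counts are whole numbers per gene without normalization, and the authors' deposited FPKM values were used only to order genes by level. The annotation release and strand setting are not given in the sources used here. Gene positions are those of GENCODE M21.

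Genes with low counts were removed by filterByExpr (at least 10 counts, at least 15 in total), and the rest normalised by TMM and fitted with edgeR 4.0.16 (quasi-likelihood, robust) in R 4.3.3, with 6 groups and a sex term over all 48 libraries. Tests were two-sided, and a gene was called at a Benjamini-Hochberg adjusted p under 0.05 over 19547 genes. Every adjusted p in the text is from this fit unless another tool, term or set of libraries is named with it. Errors are the SD over libraries or the SE of the fit, and depth was 37.7 to 68.3 M counts. Whether replicate libraries came from separate litters is not stated, and each is taken as a mouse. Alternatives were other size factors, no filter, other covariates, each sex alone, fewer libraries, limma 3.58.1, DESeq2 1.42.0 and leaving out each library in turn. The named genes are all 10 members, at most 2 of each other list by smallest p in carriers against non-carriers, and the 8 most alike in variation; Pcp4 and Grik3 fall outside this rule and were named after their values were seen. The genes and lists were chosen with earlier results of these data known.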

Additional observations from a re-analysis of the deposited data

Results flagged for a closer look

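In 60 sets of 8 libraries (10 genes in 6 genotypes), 4 values lay apart from the rest of their genotype by Dixon's criterion, which chance meets in about 1 of 20 sets. WT F4, the deepest library, had 177 CPM of Tbr1, where the nearest WT library had 188 and the median was 194 CPM. The same library had 2.82 CPM of Sla, with the nearest WT library at 4.02 and a median of 4.19 CPM. Msh3+/- M1 had 4.95 CPM of Sla, with the nearest library at 3.83 and a median of 3.37 CPM. Q140 X Msh3-/- F1 had 4.85 CPM of Sla, with the nearest library at 4.13 and a median of 4.04 CPM. At about 1 of 20, chance is met in a few of 60 sets, so 4 values are close to that share. Sla, the adaptor gene, supplied 3 of the 4 values, and WT F4 held 1 of these as well as the Tbr1 value.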

How the results depend on the processing

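The number of the 10 genes called stayed at 0 under every alternative run for the 7 pairwise comparisons, the 2 averaged Msh3 comparisons and the 2 interactions, and at 1 (Hs3st4) for males against females. For carriers against non-carriers it was 0, but 1 with plate row as a term, without the 12 libraries with choroid plexus or pituitary transcripts, with the name prefix as a random block and in DESeq2, and 0 to 2 when a library was left out. The call gained was Ntsr1, joined by Rprm without Msh3-/- F1, and the cause was not tested. No direction of a called value reversed. Same-numbered replicates of different genotypes mostly did not vary together (median r 0.008 over 120 pairs, 10 above 0.1, range -0.13 to 0.38). Some of them share a name prefix, so whether the numbers pair mice or litters is not settled. With the replicate number as a block, 0 of the 10 genes were called in carriers against non-carriers (Ntsr1 0.287, adjusted p = 0.0791). Over all genes, that block gave 91 calls for Msh3-/- against Msh3+/+, against 42 without it. Over all genes, carriers against non-carriers gave 288 calls, but 102 with plate column, 157 with plate row, 17 in females alone, 27 in males alone, 104 without the 12 libraries, 465 in DESeq2 and 201 to 475 when a library was left out. With library totals alone the split was 254 higher and 133 lower, against 139 and 149. Males against females gave 837 calls, and 359 without the 12 libraries. Nxph4, with a mean of 16.2 counts, had wide intervals, and the part of depth in its spread was not tested.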
